A study of Mus musculus with 2 samples.

Results

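The 38 genes described here are transcripts that proliferating cells make in a set order, chosen by symbol from the 32285 genes of the count matrices, and all 38 were found. The S-phase list holds 12 of them, which copy DNA or supply its building blocks, apart from Hells, a chromatin remodeler. The mitotic list holds 24, which act from late S phase through chromosome segregation, and Stmn1 and Hmgb2 stand in neither list. The genes were counted in CD45 bead-sorted immune cells from 143B tumors, a human osteosarcoma line grown in female nude mice that were 4 weeks old at the start. The mice received 4 doses, 3 days apart, of 10 mg/kg of either control IgG (a human IgG1) or anti-CD3L1. Each treatment gave 1 library of droplet single-cell RNA from a set of 3 tumors, called the control and the antibody library below, and every ratio sets the antibody library over the control. The cells of a library cannot be assigned to a tumor, so there is no replicate, no test was made, and every interval given is a 95% interval for counting error only. Nude mice lack a thymus, and Cd3e, a T cell receptor complex gene, had 22 UMIs (unique molecular identifiers, 1 per captured transcript) in the control IgG cells and 46 in the anti-CD3L1 cells.

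In the cell cycle, MCM2 to MCM7 form the helicase that opens the DNA, PCNA clamps the polymerase to it, and ribonucleotide reductase (Rrm1, Rrm2), thymidylate synthase (Tyms) and thymidine kinase (Tk1) make nucleotides. Cyclins A and B with CDK1 then drive entry into mitosis, the Aurora and Polo kinases and the kinesins build the spindle, and Cdc20 and Ube2c mark cyclins for destruction at the exit. S-phase genes are known as targets of E2F factors, and mitotic genes as targets of the DREAM and MuvB complexes at the cell cycle homology region (CHR) and of NF-Y at CCAAT boxes. Tissue neutrophils are known as cells that no longer divide, whereas natural killer (NK) cells and some tissue macrophages can.

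The stretches below show these words directly upstream of the start site. In each list they are for the pair of genes with the most UMIs among those with the words in the bases shown. They are the 160 bases before the RefSeq start in GRCm38.p6, 5′ to 3′ on the gene's strand, at chr1:128359706-128359865 (minus strand, Mcm6), chr8:75109349-75109508 (plus, Mcm5), chr7:135716380-135716539 (minus, Mki67) and chr5:30666726-30666885 (plus, Cenpa). Capitals mark an E2F word in Mcm6 and Mcm5, and CHR and CCAAT words in Mki67 and Cenpa, on either strand, with overlapping words joined.
Mcm6: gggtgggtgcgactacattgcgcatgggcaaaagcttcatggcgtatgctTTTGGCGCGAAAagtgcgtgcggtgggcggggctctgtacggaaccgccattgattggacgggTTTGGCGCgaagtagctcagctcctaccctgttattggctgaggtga
Mcm5: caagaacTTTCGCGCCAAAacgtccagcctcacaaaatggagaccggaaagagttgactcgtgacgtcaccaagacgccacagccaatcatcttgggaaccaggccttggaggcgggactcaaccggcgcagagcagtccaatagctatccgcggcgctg
Mki67: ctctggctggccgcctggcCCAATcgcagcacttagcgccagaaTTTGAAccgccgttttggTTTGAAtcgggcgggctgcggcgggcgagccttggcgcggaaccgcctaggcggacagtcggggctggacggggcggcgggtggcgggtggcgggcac
Cenpa: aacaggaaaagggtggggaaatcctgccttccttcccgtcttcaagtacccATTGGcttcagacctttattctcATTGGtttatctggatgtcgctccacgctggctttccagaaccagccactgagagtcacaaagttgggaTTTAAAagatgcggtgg

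Of the 38 genes, 32 had a promoter window in the RefSeq table, 250 bases before to 50 after the start. A CHR word (TTTGAA or TTTAAA) was in 18 of 20 mitotic windows and 4 of 11 S-phase windows, against 27.8% of all 27025 promoters. In the 250 bases before the start alone, it was in 12 of 20 mitotic windows, against 25.5% of all, so 6 of the 18 mitotic windows held it only in or across the 50 bases after the start. CCAAT was in 18 of 20 mitotic and 8 of 11 S-phase windows, against 37.9% of all promoters. An E2F word (TTTGGCGC, TTTCGCGC or TTTCCCGC) was in 5 of 11 S-phase windows and 1 of 20 mitotic windows, against 1.91% of all. Each word was sought on both strands, and a match describes the letters only.

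After filtering, 8557 control IgG cells (median 5526 UMIs) and 11269 anti-CD3L1 cells (median 8267 UMIs) remained, and 26 cell barcodes occurred in both libraries. Cells were gated into classes by marker genes that include none of the 38 genes, and 789 and 1772 cells respectively stayed unassigned. Neutrophil-like cells numbered 5568 for control and 502 in the antibody library, macrophage-like cells 587 and 3876, monocyte-like cells 1204 and 2464, NK-like cells 176 and 985, and dendritic cell (DC)-like cells 64 and 689. With 1 library each, these class sizes cannot be separated from how the cells were isolated. Neutrophil marker UMIs were also present in other classes of the control library. In NK-like cells they stood at 8032 in each 1000000 UMIs (counts per 1000000, CPM) against 189 CPM in the antibody library. In macrophage-like cells they stood at 4308 against 275 CPM. A later section subtracts free RNA at a rate set by the class with the lowest neutrophil marker level in each library. In control that class had 1979 CPM, so the same rate was used for classes with more of these markers. Beyond this, their part in the results below was not tested.

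Summed over all cells, the 38 genes stood at 880 CPM for control and 885 CPM for antibody, log2 ratio 0.01 (-0.01 to 0.02). This level sum hid opposite differences within it. Hmgb2, a chromatin protein that cells also make outside division, was 587 CPM (581 to 593) in control IgG cells and 291 CPM (288 to 295) in anti-CD3L1 cells, log2 ratio -1.01 (-1.03 to -0.99). The S-phase list was 130 CPM and 249 CPM, log2 ratio 0.94 (0.91 to 0.98), and the mitotic list 137 CPM and 286 CPM, log2 ratio 1.06 (1.03 to 1.10). Hmgb2 made up 66.7% of the module's UMIs for control and 32.9% in the antibody library. In neutrophil-like cells of the control library it made up 89.1%.

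Of the 38 genes, 36 were called higher in the anti-CD3L1 cells as a whole (at least 1.5-fold, with the interval on that side), against 53.8% of the 17781 genes with at least 20 UMIs. Hmgb2 was called lower, against 9.28% of all genes, and Kif23, a kinesin of cytokinesis, was not called, at 16.8 CPM (15.8 to 17.8) and 16.4 CPM (15.6 to 17.2). The median gene had a log2 ratio of 0.72 over all cells, and relative to it the log2 ratio was 0.23 for the S-phase list, 0.34 for the mitotic list, -0.71 for the whole module and -1.73 for Hmgb2. On that scale 11 members were called higher, against 16.7% of all genes, and 2 lower (Kif23 and Hmgb2), against 22.3%.

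The S-phase genes with the most UMIs were Pcna, Mcm6, Mcm3 and Mcm4. Pcna, the sliding clamp, was 61.4 CPM (59.6 to 63.3) in control IgG and 94.3 CPM (92.4 to 96.3) in anti-CD3L1 cells, log2 ratio 0.62 (0.57 to 0.67). Mcm6 was 9.60 CPM (8.87 to 10.4) and 27.7 CPM (26.6 to 28.7), log2 ratio 1.53 (1.40 to 1.65). Mcm3 was 9.57 CPM (8.84 to 10.3) and 22.2 CPM (21.2 to 23.1), log2 ratio 1.21 (1.08 to 1.34). These helicase subunits had larger ratios than Pcna, with Mcm4 between them at 9.05 CPM (8.34 to 9.80) and 17.5 CPM (16.6 to 18.3), log2 ratio 0.95 (0.81 to 1.08). In the mitotic list, Mki67, which coats mitotic chromosomes, was 30.5 CPM (29.2 to 31.8) and 56.6 CPM (55.2 to 58.2), log2 ratio 0.89 (0.82 to 0.97). Cenpa, the histone of centromeres, was 25.6 CPM (24.4 to 26.9) and 57.5 CPM (56.0 to 59.0), log2 ratio 1.16 (1.09 to 1.24). Top2a, which untangles DNA, was 13.4 CPM (12.6 to 14.4) and 30.9 CPM (29.8 to 32.0), log2 ratio 1.20 (1.09 to 1.31). Stmn1, a regulator of microtubules, was 26.7 CPM (25.5 to 28.0) and 58.6 CPM (57.1 to 60.1), log2 ratio 1.13 (1.06 to 1.21).

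The level of both lists varied between the gated classes, whose mix differed between the libraries. The difference in the summed S-phase and mitotic lists between the libraries (268 CPM) was split arithmetically, with each class weighted by its share of UMIs. Of it, 81.5% came from the different mix of classes and the rest from different levels within classes. Neutrophil-like cells held 47.4% of control and 1.40% of antibody UMIs, so the depth of a class is part of this mix. The mix accounted for 87.1% of the S-phase difference, 77.1% of the mitotic difference and 80.9% of the Hmgb2 difference.

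**Figure D1:**
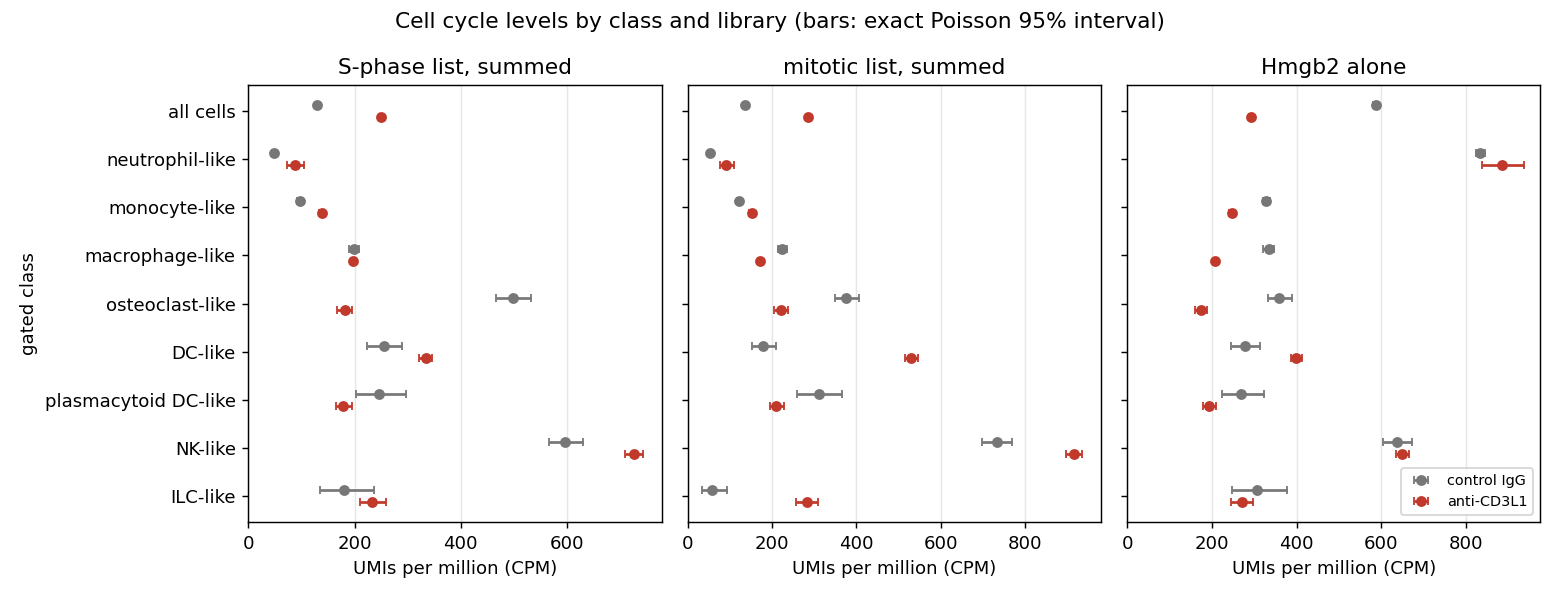
Level of the summed S-phase list, the summed mitotic list and Hmgb2 (x axis, CPM) in each gated class (y axis) for control IgG (grey) and anti-CD3L1 (red), with exact Poisson 95% intervals. NK-like cells stand highest for both lists, and neutrophil-like cells stand lowest for the S-phase list and highest for Hmgb2.

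NK-like cells had the highest level of both lists. The S-phase list was 598 CPM (566 to 631) for control and 728 CPM (711 to 745) in the antibody library, and the mitotic list 733 CPM (698 to 770) and 917 CPM (898 to 936). Within the control library the mitotic level of NK-like cells was 3.26 times that of macrophage-like cells (3.05 to 3.49) and 14.1 times that of neutrophil-like cells (13.2 to 15.1). Within the antibody library these folds were 5.33 (5.17 to 5.51) and 10.1 (8.43 to 12.1). Neutrophil-like cells had 47.5 and 87.5 CPM of S-phase and 52.0 and 91.2 CPM of mitotic transcripts, while their Hmgb2 was 834 and 886 CPM, above the 637 and 649 CPM of NK-like cells. Barcodes under 100 UMIs, which hold mostly free RNA, gave 159 and 282 CPM for the S-phase list and 149 and 246 CPM for the mitotic list. In the antibody library these levels lay above those of macrophage-, monocyte-, neutrophil-, osteoclast- and plasmacytoid DC-like cells. There the S-phase level also lay above that of innate lymphoid cell-like cells (234 CPM). In the control library both levels lay above those of monocyte-like and neutrophil-like cells. The mitotic level there also lay above that of innate lymphoid cell-like cells (58.0 CPM).

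**Figure D2:**
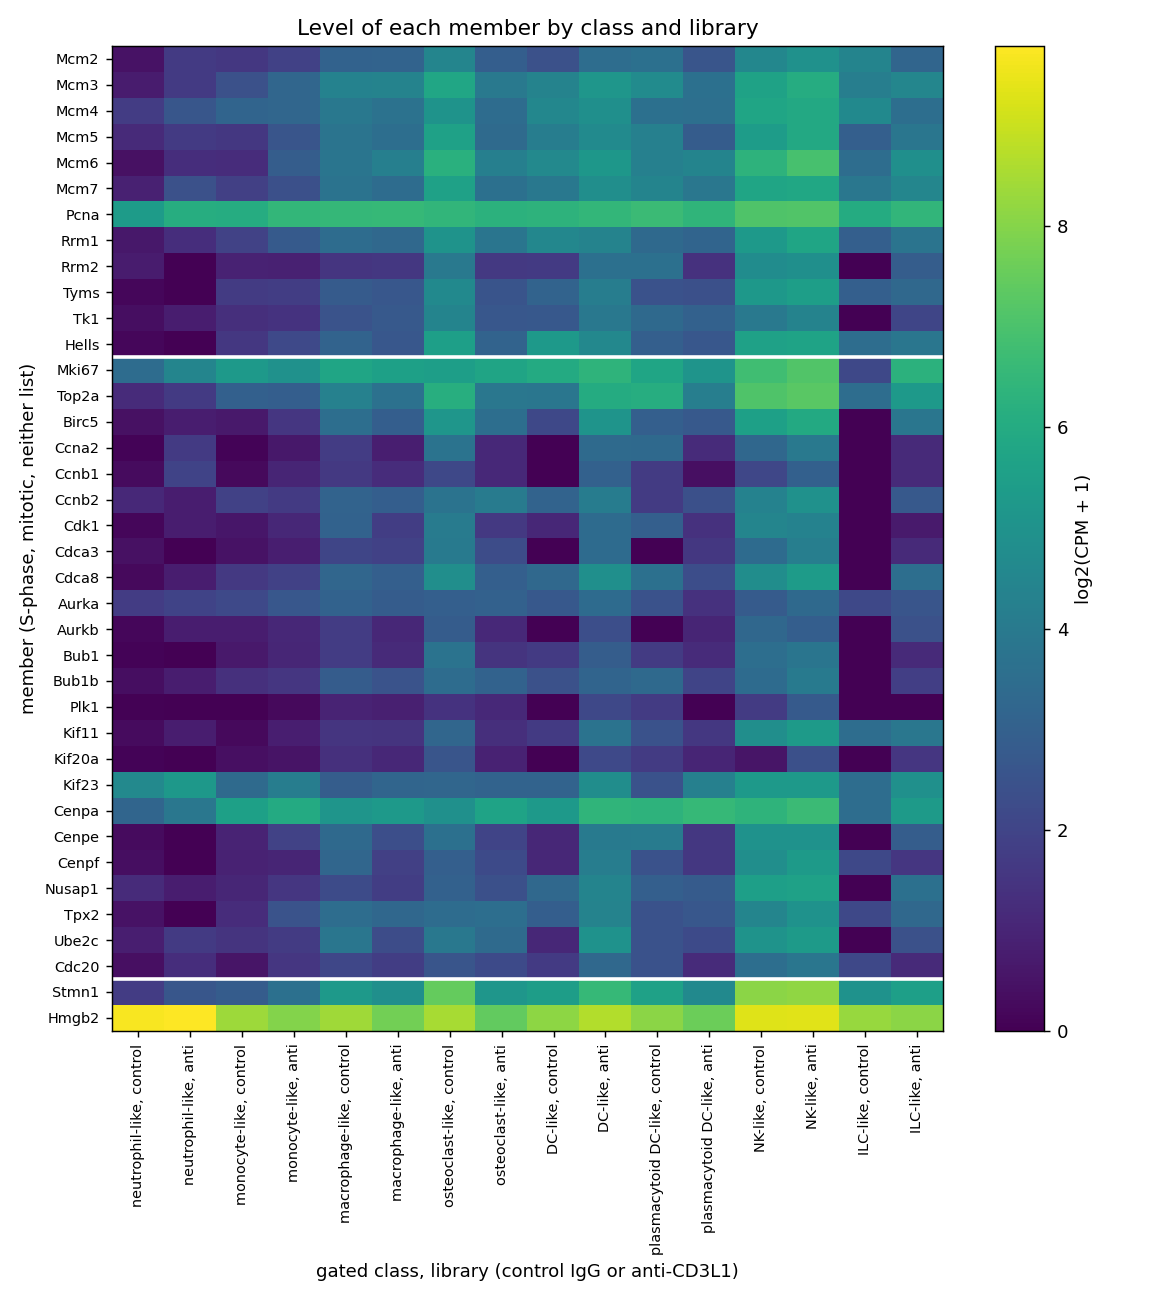
Level of each of the 38 members (rows, S-phase list first, then the mitotic list, then Stmn1 and Hmgb2) in each gated class and library (columns), as log2(CPM + 1). Hmgb2 is bright in every column, and most mitotic genes are brightest in the NK-like columns.

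A few cells carried much of the signal. In NK-like cells, the top 10% of cells held 76.9% of the mitotic UMIs for control and 74.1% in the antibody library. To compare cells of unequal depth, each was thinned to 1000 UMIs and the share with at least 3 mitotic genes was counted. In NK-like cells this was 9 of 176 cells (5.11%, 2.36% to 9.49%) for control and 62 of 983 (6.31%, 4.87% to 8.01%) in the antibody library, a difference of 1.19 percentage points (-3.33 to 4.13) that was within counting error. In DC-like cells it was 0 of 64, which allows up to 4.69%, and 20 of 684 (2.92%, 1.79% to 4.48%), and the difference of 2.92 points also had an interval across 0 (-2.83 to 4.47). In macrophage-like cells it was 8 of 584 (1.37%, 0.593% to 2.68%) and 18 of 3845 (0.468%, 0.278% to 0.739%), a difference of -0.90 points (-2.22 to -0.18). In neutrophil-like cells it was 0 of 5476, which allows up to 0.0548%, and 0 of 481, which allows up to 0.624%. Without thinning, NK-like cells had shares of 25.6% and 28.2%, and osteoclast-like cells 32.8% and 14.5%, the first above the NK-like control share. The shares were 17.2% and 18.1% in DC-like, 11.1% and 7.87% in macrophage-like and 0.341% and 0.398% in neutrophil-like cells. The depth of the cells was unequal.

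**Figure D3:**
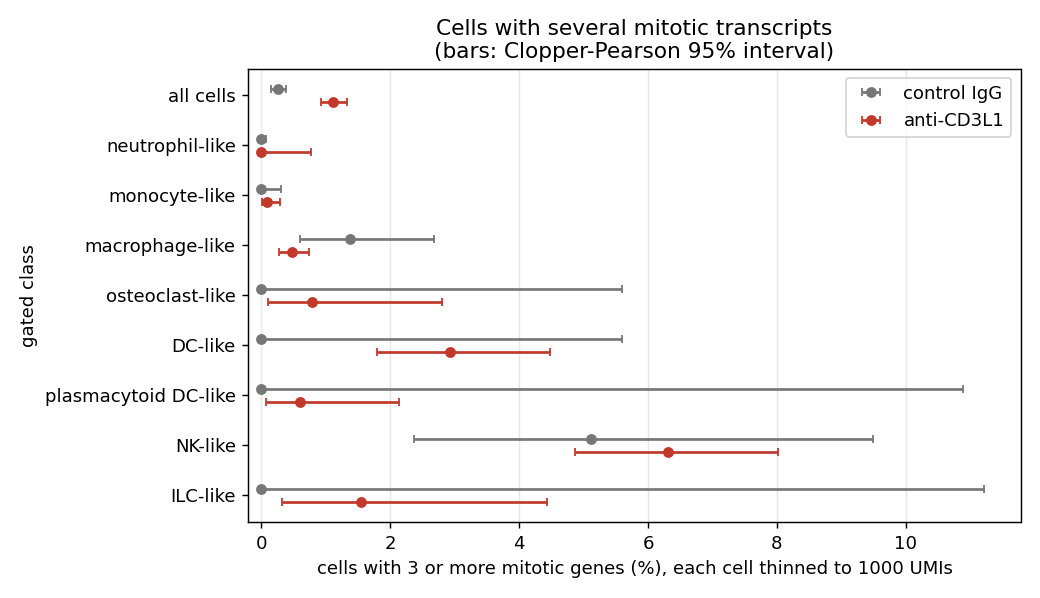
Share of cells with at least 3 mitotic genes after thinning to 1000 UMIs (x axis, percent) by gated class (y axis) for control IgG (grey) and anti-CD3L1 (red), with Clopper-Pearson 95% intervals. NK-like cells lie at 5.11% and 6.31%, and the intervals of the 2 libraries overlap there.

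Counting all UMIs, cells with at least 5 mitotic genes numbered 91 in the control library, of which 32 were NK-like, 19 macrophage-like and 16 osteoclast-like. They numbered 347 in the antibody library, of which 161 were NK-like, 58 DC-like and 54 macrophage-like. They were 1.06% of control and 3.08% of antibody cells, with median depths over all cells of 5526 and 8267 UMIs. In the control library the 32 were among 176 NK-like cells and the 16 among 64 osteoclast-like cells. The members differed in how far such cells held their UMIs, with the gene itself left out of the count that chose the cells. Ccna2 (cyclin A2) had 91.4% of its UMIs in them for control and 93.6% in the antibody library, and Birc5 (survivin, of the chromosomal passenger complex) had 86.4% and 87.8%. By contrast Cenpa had 10.0% and 14.5%, Aurka, a spindle pole kinase, 12.2% and 18.1%, and Pcna 9.94% and 11.8%. Mki67 lay between, at 22.2% and 38.2%, and Hmgb2 had 5.23% and 29.0%. The mitotic list held genes nearly confined to these cells and genes, such as Cenpa, mostly counted outside them.

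**Figure D4:**
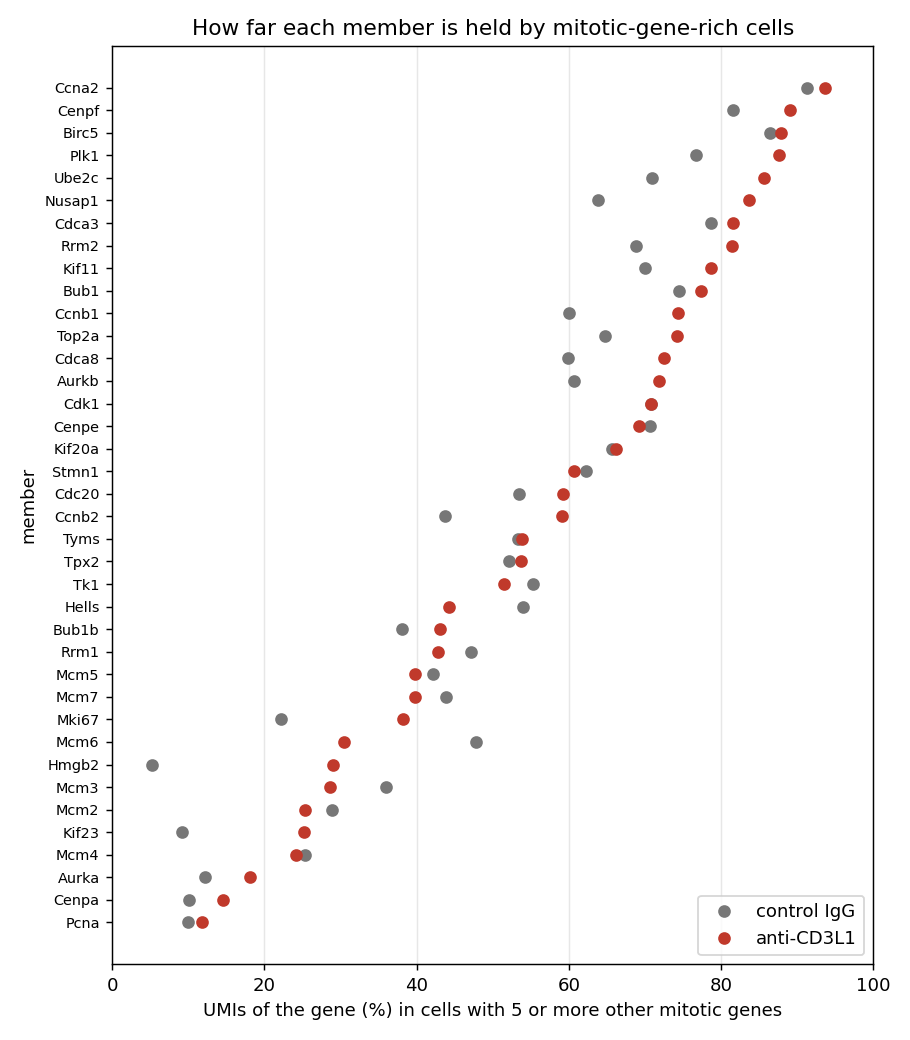
Share of each member's UMIs (x axis, percent) found in cells with at least 5 other mitotic genes, for control IgG (grey) and anti-CD3L1 (red); each row is a member. Ccna2 stands at the top above 90% and Pcna at the bottom near 10%.

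In macrophage-like cells the S-phase list was level between the libraries and the mitotic list was lower in the antibody library. The S-phase list was 199 CPM (189 to 209) and 198 CPM (193 to 202), log2 ratio -0.01 (-0.09 to 0.07), and the mitotic list 225 CPM (215 to 235) and 172 CPM (168 to 176), log2 ratio -0.39 (-0.46 to -0.31). Members called lower numbered 11 of 38, against 8.03% of the 14178 genes counted, and 0 were called higher, against 8.64%. The 11 were Hmgb2 and 10 mitotic genes, among them Top2a, Birc5 and Cenpe, and 0 of 12 S-phase genes were among them. Relative to the median gene the same 11 were called lower, against 8.32% of all genes, and 0 higher, against 8.28%. The median log2 ratio was -0.48 over the mitotic list and -0.07 over the S-phase list, beside 0.02 over all genes. Without the upper limit of 6000 genes per cell the mitotic log2 ratio was -0.68 and the S-phase one -0.14, and without the top 5% of cells by UMIs they were -0.48 and 0.13. Without the top 1% of cells by module UMIs the mitotic ratio was -0.22. The share of cells with at least 3 mitotic genes differed by -0.37 points (-1.41 to 0.13) when cells with up to 10% mitochondrial UMIs were kept, so its interval then reached 0.

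The smallest ratios in macrophage-like cells were those of Ube2c, Cenpf and Cdk1. Ube2c, the ubiquitin-conjugating enzyme of mitotic exit, was 13.3 CPM (11.0 to 16.1) for control and 3.84 CPM (3.24 to 4.52) for antibody, log2 ratio -1.80 (-2.16 to -1.42). Cenpf, a kinetochore protein, was 8.48 CPM (6.61 to 10.7) and 2.58 CPM (2.09 to 3.14), log2 ratio -1.72 (-2.17 to -1.25). Cdk1, the mitotic kinase, was 7.39 CPM (5.65 to 9.50) and 2.42 CPM (1.95 to 2.97), log2 ratio -1.61 (-2.09 to -1.12). At the other end, Mcm6 was 12.8 CPM (10.5 to 15.5) and 17.7 CPM (16.3 to 19.0), log2 ratio 0.46 (0.16 to 0.77). Kif23 was 6.42 CPM (4.81 to 8.40) and 8.16 CPM (7.28 to 9.12), log2 ratio 0.34 (-0.08 to 0.79), and Tk1 was 4.61 CPM (3.26 to 6.32) and 5.63 CPM (4.90 to 6.44), log2 ratio 0.29 (-0.21 to 0.83). The intervals of Kif23 and Tk1 held 0. All these intervals treat UMIs as independent. The top 10% of macrophage-like cells held 64.2% of the mitotic UMIs for control and 52.5% in the antibody library.

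**Figure D5:**
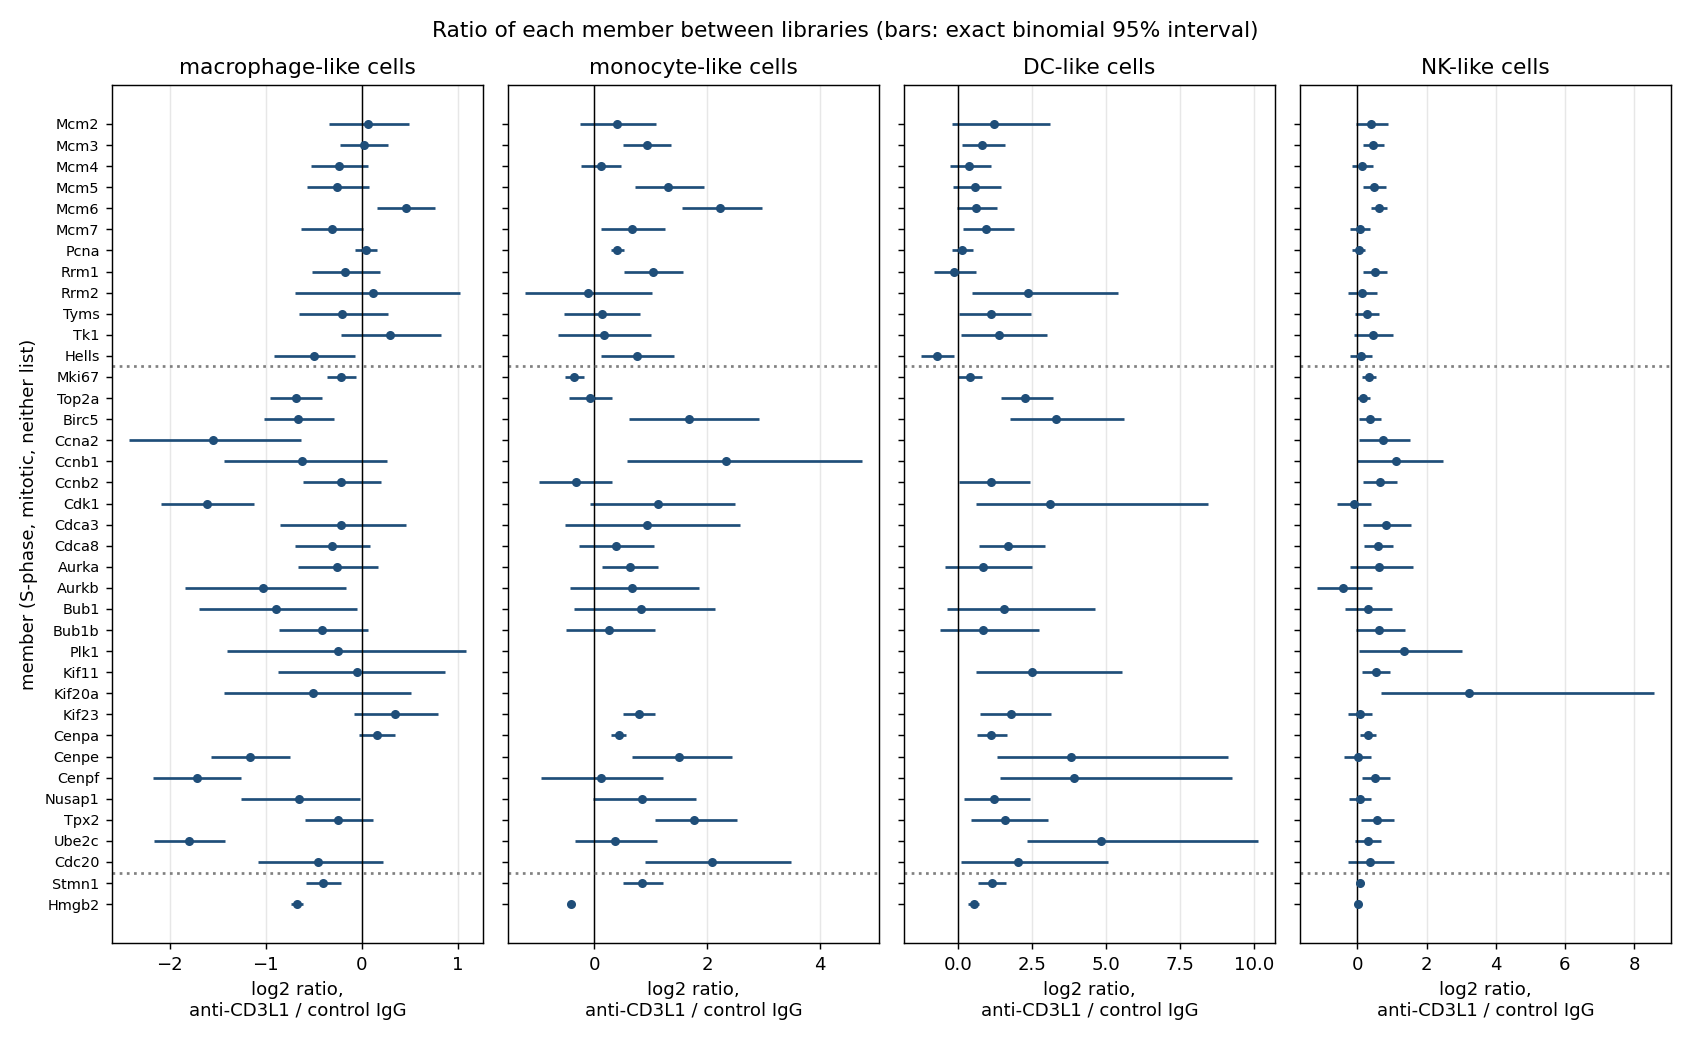
Log2 ratio between the libraries, antibody over control (x axis, a separate scale per panel) for each member (y axis) in macrophage-, monocyte-, DC- and NK-like cells, with exact binomial 95% intervals. Members with under 20 UMIs or 0 UMIs in a library are left out, and the lowest points of the macrophage-like panel are the mitotic genes Ube2c, Cenpf and Cdk1.

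In monocyte-like cells the summed CPM of both lists was higher in the antibody library. In both libraries these levels lay below those of barcodes under 100 UMIs. The S-phase list was 96.4 CPM (91.6 to 101) and 138 CPM (133 to 143), log2 ratio 0.51 (0.42 to 0.61), and the mitotic list 121 CPM (116 to 127) and 151 CPM (146 to 157), log2 ratio 0.32 (0.23 to 0.40). Of the 34 members with enough UMIs, 14 were called higher, against 20.4% of 13099 genes, and 0 lower, against 5.18%. Relative to the median gene, at 0.25, the mitotic ratio was 0.07 (-0.01 to 0.15), and 10 members were called higher, against 10.8% of all genes on that scale, and 2 lower (Mki67 and Hmgb2), against 9.6%. Ccnb1 (cyclin B1) rested on 3 and 20 UMIs, at 0.197 CPM (0.041 to 0.575) and 0.997 CPM (0.609 to 1.54), log2 ratio 2.34 (0.59 to 4.73). Mcm6 was 1.38 CPM (0.853 to 2.11) and 6.43 CPM (5.37 to 7.64), log2 ratio 2.22 (1.55 to 2.96), and Cdc20, an activator of the anaphase-promoting complex, was 0.459 CPM (0.185 to 0.946) and 1.94 CPM (1.38 to 2.66), log2 ratio 2.08 (0.90 to 3.49). The smallest ratios were those of Hmgb2, 329 CPM (320 to 338) and 248 CPM (241 to 255) with log2 ratio -0.41 (-0.47 to -0.35), and of Mki67, 38.6 CPM (35.5 to 41.8) and 30.2 CPM (27.9 to 32.7) with log2 ratio -0.35 (-0.52 to -0.19). Ccnb2 (cyclin B2) was 2.76 CPM (1.99 to 3.72) and 2.19 CPM (1.59 to 2.94), log2 ratio -0.33 (-0.97 to 0.32), which was within counting error. After thinning, 0 of 1202 control cells, which allows up to 0.250%, and 2 of 2452 antibody cells had at least 3 mitotic genes. Unthinned, the shares were 5.40% and 4.18%, a difference of -1.22 points (-2.82 to 0.21) between cells of unequal depth. The thinned share with Mki67 differed by -1.89 points (-3.35 to -0.61), and for Top2a and Pcna the intervals held 0.

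In DC-like cells the mitotic list was 179 CPM (152 to 208) for control and 530 CPM (515 to 546) for antibody, log2 ratio 1.57 (1.34 to 1.80), and the S-phase list 255 CPM (223 to 290) and 334 CPM (322 to 346), log2 ratio 0.39 (0.20 to 0.59). Members called higher numbered 23 of 38, of them 17 mitotic, against 6.56% of 11243 genes, and Hells, a chromatin remodeler, was called lower, against 7.36%. Relative to the median gene 21 were called higher, against 4.82% of all genes, and Hells lower, against 8.89%. Top2a had 12 and 535 UMIs (13.2 and 63.4 CPM), Birc5 3 and 276 UMIs, and Ccna2 0 and 80 UMIs. The top 10% of DC-like cells held 37.0% of the mitotic UMIs for control and 73.6% in the antibody library. The interval of the ratio treats these UMIs as independent. The share of DC-like cells with at least 3 mitotic genes differed by 2.92 points thinned and by 0.955 points unthinned (-10.4 to 8.88). Both of these intervals held 0. The control IgG side rests on 64 cells, and the make-up of the class differed between the libraries, since Clec9a, a marker of type 1 DCs, was 21.0 CPM in control and 50 CPM in antibody cells, and Ccr7, a marker of mature DCs, 800 and 637 CPM. The part of this make-up in the ratios was not tested.

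In NK-like cells the S-phase log2 ratio was 0.28 (0.20 to 0.37) and the mitotic one 0.32 (0.25 to 0.40). These intervals treat UMIs as independent, and the top 10% of cells held 59.6% of the control and 48.4% of the antibody S-phase UMIs. Thinned, the share with at least 3 S-phase genes was 3.98% and 3.46%, a difference of -0.52 points (-4.64 to 1.92). Members called higher numbered 7 of 38, against 10.6% of 11699 genes, and 0 were called lower, against 4.47%. The 7 were Mcm6 and the mitotic genes Ccna2, Ccnb2, Cdca3, Cdca8, Plk1 and Kif20a. Relative to the median gene, at 0.16, 2 were called higher (Cdca3 and Kif20a), against 6.5% of all genes, and 0 lower, against 6.8%, and the lists' log2 ratios were 0.12 and 0.16. The log2 ratio of Hmgb2 was 0.03 (-0.06 to 0.11), an interval that held 0, and lay at -0.13 relative to the median gene. After thinning, Hmgb2 was found in 69 of 176 control and 283 of 983 antibody NK-like cells, a difference of -10.4 points (-18.3 to -2.92). The share with Mki67 differed by 3.97 points (0.07 to 6.36). For Top2a (0.55 points, -4.53 to 4.09) and Pcna (-5.28 points, -12.1 to 0.37) the intervals held 0.

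In osteoclast-like cells both lists were lower in the antibody library. Their S-phase list was 498 CPM (466 to 532) for control and 181 CPM (167 to 196) for antibody, log2 ratio -1.46 (-1.61 to -1.31), and their mitotic list 377 CPM (349 to 406) and 221 CPM (205 to 237), log2 ratio -0.77 (-0.92 to -0.62). The gated cells were not alike in the 2 libraries: 64 control IgG cells had a median of 29288 UMIs, Ctsk (cathepsin K) at 2083 CPM and Ptprc (CD45) at 218 CPM, and 256 anti-CD3L1 cells had 12565 UMIs, 887 CPM and 513 CPM. Among the other gate markers, Acp5 was 2573 CPM in control IgG and 1180 CPM in anti-CD3L1 cells. Atp6v0d2 was 459 and 363 CPM and Ocstamp 91.7 and 72.8 CPM, while Dcstamp was higher in anti-CD3L1 cells, at 60.9 and 265 CPM. C1qa, a marker of the macrophage gate, was 77.1 and 1101 CPM. After thinning, at least 3 mitotic genes were found in 0 of 64 cells, which allows up to 4.69%, and in 2 of 255 cells. Unthinned, they were found in 21 of 64 (32.8%) and 37 of 256 cells (14.5%), a difference of -18.4 points (-31.1 to -7.03) between cells of unequal depth. Plasmacytoid DC-like cells, 32 and 336 in number, had 246 and 179 CPM of S-phase and 310 and 210 CPM of mitotic transcripts. ILC (innate lymphoid cell)-like cells, 31 and 196 in number, had 58.0 CPM (33.8 to 92.9) and 282 CPM (257 to 310) of mitotic transcripts, the first from 17 UMIs.

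The genes with the largest folds between cells with several mitotic genes and the other cells of their class were listed as a description, among genes outside the 38 with at least 100 CPM in the first. This filter and ranking fix the direction, so only the identity of the genes and their levels are given. In the antibody library, NK-like cells with at least 3 mitotic genes after thinning had Hist1h1b, a linker histone, at 746 CPM against 76.5 CPM in the other NK-like cells, and Hmmr, a spindle protein, at 100.4 against 6.09 CPM. In DC-like cells Hmmr was 106 against 1.62 CPM and Racgap1, a regulator of cytokinesis, 182 against 9.21 CPM. In macrophage-like cells Hist1h2ap was 618 against 5.23 CPM and Pclaf, a PCNA partner, 273 against 3 CPM. These cells were also deeper, with a median of 16855 against 8604 UMIs in NK-like cells. Their own class markers summed to 4198 against 4854 CPM in NK-like cells and 22569 against 26978 CPM in macrophage-like cells.

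A further 36 mitotic genes were listed beside the 38. In macrophage-like cells 0 of 35 with enough UMIs were called higher and 7 lower, in DC-like cells 19 of 32 higher and 0 lower, in NK-like cells 11 of 36 higher and 0 lower, and in monocyte-like cells 8 of 23 higher and 1 lower. The shares of all genes called higher and lower were 8.64% and 8.03% in macrophage-like, 6.56% and 7.36% in DC-like, 10.6% and 4.47% in NK-like and 20.4% and 5.18% in monocyte-like cells. Of 22 further S-phase genes, 1 was called higher and 3 lower in macrophage-like cells. In DC-like cells 3 of 21 were called higher, in NK-like cells 2 of 22 and in monocyte-like cells 9 of 21. In each of these classes 0 were called lower. Over all cells 20 of the 22 were called higher, against 53.8% of all genes, and the genes with the most UMIs were Slbp, which binds histone mRNA (59.4 CPM in control and 61.2 CPM in antibody cells), Cdt1, a licensing factor (21.4 and 45.6 CPM), and Rfc2, of the clamp loader (18.9 and 37.0 CPM).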

How the data were processed

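Single-cell RNA was measured in 2 libraries of CD45 bead-sorted cells, 1 per treatment. The authors deposited raw UMI counts per gene and barcode. The submitters' processing notes name Cell Ranger 7.1.0, Seurat 5.1.0 and GRCm39, and a deposited table of the authors' own fold changes and p-values was not used. The matrices hold 74850604 and 108246719 UMIs. Barcodes with at least 500 UMIs, over 200 and under 6000 genes and under 5% mitochondrial UMIs were kept, and no doublet caller was run. Each cell was scored by the mean z-score of log-normalized markers over 14 lists. Lists with at least 3 detected markers could win, and a cell was gated if its best score passed 0.2 and exceeded the next by over 0.1. This scoring was chosen after the data were seen. The member genes and all gene lists were chosen with earlier results of these data known. CPM carry exact Poisson intervals, ratios exact binomial (Clopper-Pearson) intervals and differences of shares Newcombe intervals, all at 95% and treating UMIs as independent, although a few cells hold many of them. A zero share is given with the limit that 3 counts allow. Cells were thinned by drawing 1000 UMIs without replacement, and 187 and 310 shallower cells were left out. Full values were given for the 4 S-phase and 4 mitotic members with most UMIs, Stmn1, Hmgb2, and the 3 largest and 3 smallest ratios in macrophage- and monocyte-like cells. Other values named were chosen after they were seen. The ratio was checked on independent counts simulated from the summed macrophage-like cells, a setting without UMIs concentrated in a few cells. The thinning was checked on the real counts, by its total against the expected total. Promoters came from RefSeq GRCm38.p6, 1 window per gene, and no coordinate was carried between builds. Python 3.11.15, numpy 2.4.6, scipy 1.17.1 and pandas 2.3.3 were used.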

Additional observations from a re-analysis of the deposited data

Results flagged for a closer look

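The summed S-phase and mitotic lists differed between the libraries in opposite directions in different classes. Its log2 ratio, antibody library over control, was above 0 in neutrophil-like (0.84), monocyte-like (0.41), DC-like (0.99), NK-like (0.31) and ILC-like cells (1.11). It was below 0 in macrophage-like (-0.20), osteoclast-like (-1.12) and plasmacytoid DC-like cells (-0.52). Relative to the median gene of each class these were 0.31, 0.16, 0.91, 0.15 and 0.96, and -0.21, -1.18 and -0.65. The neutrophil-like sums, 99.5 and 179 CPM, lay below the 308 and 527 CPM of barcodes under 100 UMIs, which hold mostly free RNA. So did the monocyte-like sums, 218 and 289 CPM, and the ILC-like sums, 239 and 516 CPM. In the antibody library alone, the macrophage-like (370 CPM), osteoclast-like (402 CPM) and plasmacytoid DC-like sums (389 CPM) also lay below that level. The ILC-like control sum came from 70 UMIs in 31 cells. Among control plasmacytoid DC-like cells, 3 of 32 held 64.8% of the S-phase and 64.7% of the mitotic UMIs. Among control osteoclast-like cells, 6 of 64 held 47.7% and 62.9%. The plasmacytoid DC-like share with at least 3 mitotic genes differed by 0.60 points thinned (-10.1 to 2.14) and by -2.53 points unthinned (-17.5 to 4.40). With 1 library per treatment the difference between classes was not tested.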

How the results depend on the processing

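Of 80 values recomputed under alternatives, 48 stayed inside the interval of the reported value, 32 moved outside it (values of the class-mix share, which has no interval, all counted as moved) and 0 reversed a called sign. A ratio whose reported interval held 0 could not count as reversed. This applied to the module ratio over all cells and in monocyte-like cells and to the S-phase ratio in macrophage-like cells. Under the alternatives they took both signs, from -0.71 to 1.02, -0.26 to 0.42 and -0.14 to 0.13. The sums over all 38 genes turned on Hmgb2. Without it the module log2 ratio was 1.02 over all cells, -0.21 in macrophage-like, 0.42 in monocyte-like, 0.27 in NK-like and 1.01 in DC-like cells, and without Stmn1 as well it was 1.01, -0.20, 0.41, 0.31 and 0.99. Scaled by the median gene it was -0.71 over all cells, -0.26 in monocyte-like and 0.045 in NK-like cells. With no upper limit on genes it was -0.019 over all cells and -0.54 in macrophage-like cells, where the S-phase ratio was -0.14 and the mitotic ratio -0.68. Without the top 5% of cells by UMIs these 2 were 0.13 and -0.48. Free RNA was estimated as 2.53% of control and 8.49% of antibody UMIs from the class with the fewest neutrophil markers. This choice was made after seeing the data. The same share was subtracted in every class except neutrophil-like cells, which were left as counted. Subtracting this free RNA gave module ratios of -0.44 in macrophage-like, -0.066 in monocyte-like and 0.27 in NK-like cells. The stricter gate gave a module ratio of -0.058 in monocyte-like cells. Without the top 1% of cells by module UMIs the module ratio was -0.10 over all cells and -0.092 in monocyte-like cells, and the mitotic ratio in macrophage-like cells -0.22. The macrophage-like share with at least 3 mitotic genes differed by -3.20 points unthinned and by -0.60 points (-2.01 to 0.22) thinned to 2000 UMIs, and its interval also reached 0 without the top 5% of cells (-0.48, -1.60 to 0.02). In alternatives added after seeing the data, the NK-like over macrophage-like module fold of the antibody library, 4.25, was 4.84 without Hmgb2 and 2.81 in the control library, and the class-mix share was 87.1% for the S-phase list, 77.1% for the mitotic list and 81.2% with the stricter gate. The causes were not tested. No paired analysis was possible because each treatment has 1 library.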

Other observations

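Inhibitors of the cycle and G1 genes gave other values. Btg1, an antiproliferative gene, was 1794 CPM in control IgG and 1084 CPM in anti-CD3L1 cells, and Btg2 was 529 and 290 CPM. Within neutrophil-like cells Btg1 was 2108 and 2268 CPM and Btg2 713 and 776 CPM. Within monocyte-like cells they were 1859 and 1442 CPM and 403 and 421 CPM, and within macrophage-like cells 1028 and 884 CPM and 404 and 196 CPM. Within NK-like cells they were 1396 and 787 CPM and 393 and 298 CPM. Within osteoclast-like cells both were higher in the antibody library, at 770 and 1078 CPM and 68.7 and 175 CPM. Cdkn1a, which encodes the CDK inhibitor p21, was 495 and 571 CPM, and in macrophage-like cells 559 and 653 CPM. It was 474 and 219 CPM in neutrophil-like and 192 and 689 CPM in osteoclast-like cells. Of 12 inhibitors, 4 were called higher over all cells, against 53.8% of all genes, and 4 lower, against 9.28%. Among 7 G1 genes 5 were called higher, against 53.8% of all genes, with Cdk6, a G1 kinase, at 134 and 217 CPM and Ccnd2 (cyclin D2) at 25.5 and 91.2 CPM. In macrophage-like cells Ccnd1 (cyclin D1) was 73.8 and 36.6 CPM, a log2 ratio of -1.01 (-1.15 to -0.87), while Cdk6 was 241 and 240 CPM.

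A list of 13 symbols for histones, chromatin proteins and tubulins had 9 found, and 7 of them were called higher over all cells, against 53.8% of all genes. They were the histone genes H2afz, H2afx, Hist1h1b, Hist1h2ap and Hist1h2ae and the tubulin genes Tuba1b and Tubb5. H2afz, a variant histone, was 566 and 1014 CPM over all cells and 757 and 730 CPM in macrophage-like cells. Cks2, a CDK-binding protein of the further mitotic genes, was 189 CPM in control IgG and 64.4 CPM in anti-CD3L1 cells, a log2 ratio of -1.55 (-1.60 to -1.51). Within classes it was 310 and 290 CPM in neutrophil-like cells, log2 ratio -0.10 (-0.24 to 0.05), -0.34 in macrophage-like, -0.22 in NK-like and 0.62 in DC-like cells. It was the 1 gene called lower among those 36 over all cells, against 9.28% of all genes, where 31 were called higher, against 53.8%. The next by UMIs were the condensin genes Smc4, at 36.2 and 49.9 CPM, and Smc2, at 7.89 and 19.1 CPM.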
